A study of Mus musculus with 22 samples.

Results

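The cadherins, protocadherins and catenins were examined in RNA sequencing (RNA-seq) libraries of whole mouse testes. The set holds every gene symbol of the deposited count table that begins with Cdh and a number, with Cdhr or Pcdh, or with Ctnna, Ctnnb or Ctnnd and a number. *Cdh5* was left out by definition and was counted with the endothelial markers. This gave 97 of the 17931 symbols in the table. The libraries came from 3 wild-type (WT) males, verified as fertile breeders, and 3 MLX KO males aged 7 months, which the study describes as littermate pairs. MLX KO mice carry a constitutive deletion of *Mlx* exons 3 to 6, made by homologous recombination in mouse embryonic stem cells, so every testis cell type lacks this part of the gene. The Meox2-Cre transgene used to excise the exons had been crossed out. The 3 libraries of each genotype are separate animals and no other treatment is named.

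Cadherins are calcium-dependent adhesion proteins whose extracellular domains bind those of a neighboring cell. The cytoplasmic tails of classical cadherins hold p120-catenin (*Ctnnd1*) and beta-catenin (*Ctnnb1*), and an alpha-catenin links beta-catenin to actin filaments. Beta-catenin also acts in the nucleus as the transcriptional arm of Wnt signaling. In the testis, N-cadherin (*Cdh2*) and catenins sit at the junctions between neighboring Sertoli cells and between Sertoli cells and germ cells. Protocadherins have distinct cytoplasmic tails, and those of the alpha, beta and gamma clusters are best known for giving neurons individual surface identities.

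The libraries held 16674678 to 19742726 counts. Counts of *Mlx* itself were 128, 96 and 98 for WT libraries against 94, 109 and 102 for KO libraries, with a log2 fold change (LFC, KO over WT) of −0.18 (SE 0.14, adjusted p = 0.326). Because this count covers the whole gene, including the exons left in place, it does not check the genotype labels. Levels are given as CPM, the share of a library's counts that fell on a gene, scaled by the library's TMM factor, which sets the bulk of genes equal between libraries. Adjusted p-values are from edgeR's two-sided quasi-likelihood test with Benjamini-Hochberg adjustment over 14640 genes. The threshold was 0.05. Over the genes tested, KO1 differed more from KO2 and KO3 (chi-square per degree of freedom 8.26 and 8.25) than KO2 from KO3 (2.73). Between WT libraries this value was 2.99 to 4.27.

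Marker RNA of several testis cell types differed between the genotypes in these libraries. All 8 spermatid markers were lower in MLX KO testes, with a summed level of 15000 to 15800 CPM in WT and 8450 to 10400 CPM in KO libraries. All 11 Sertoli cell markers were higher (1030 to 1080 against 1560 to 1870 CPM), as were all 8 Leydig cell markers (865 to 885 against 1860 to 2450 CPM) and all 8 macrophage markers measured (84.9 to 89.7 against 179 to 185 CPM). Of the others, 4 of 6 peritubular myoid markers were higher and 1 lower, 3 of 7 endothelial markers were higher, 2 of 8 spermatogonial markers were higher and 1 lower, and 5 of 8 spermatocyte markers were lower. No marker of any list was at 0 in all libraries. In bulk tissue, fewer cells of a type and less RNA per cell cannot be told apart. The part of these shifts in the values of the adhesion genes was not tested.

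Of the 97 members, 52 passed the filter on low counts and 15 passed the threshold, 8 of them higher and 7 lower in MLX KO testes. That is 28.8% of the members tested, where 45.4% of all genes tested passed. The share higher was 15.4% for members and 24.8% for all genes, and the share lower was 13.5% and 20.6%. The CPM ranges of the genotypes did not overlap for 18 of the 52 tested members (34.6%), against 56.2% of all genes tested. All 15 members past the threshold were among these 18 members. Any pairing of the libraries therefore gives them the same direction in 3 of 3 pairs, so the littermate pairs add nothing on direction. Fits with the pair as a block are given below. Changed members were thus a smaller share than among genes at large. Many members had low counts, with 30 of the 52 tested under 1 CPM per kb, where a change is harder to call. The share past the threshold was 66.7% among the catenins and 22.7% among the clustered protocadherins. How far counts set the share was not tested. The median LFC was −0.03 over the tested members and 0.03 over all genes tested.

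**Figure D1:**
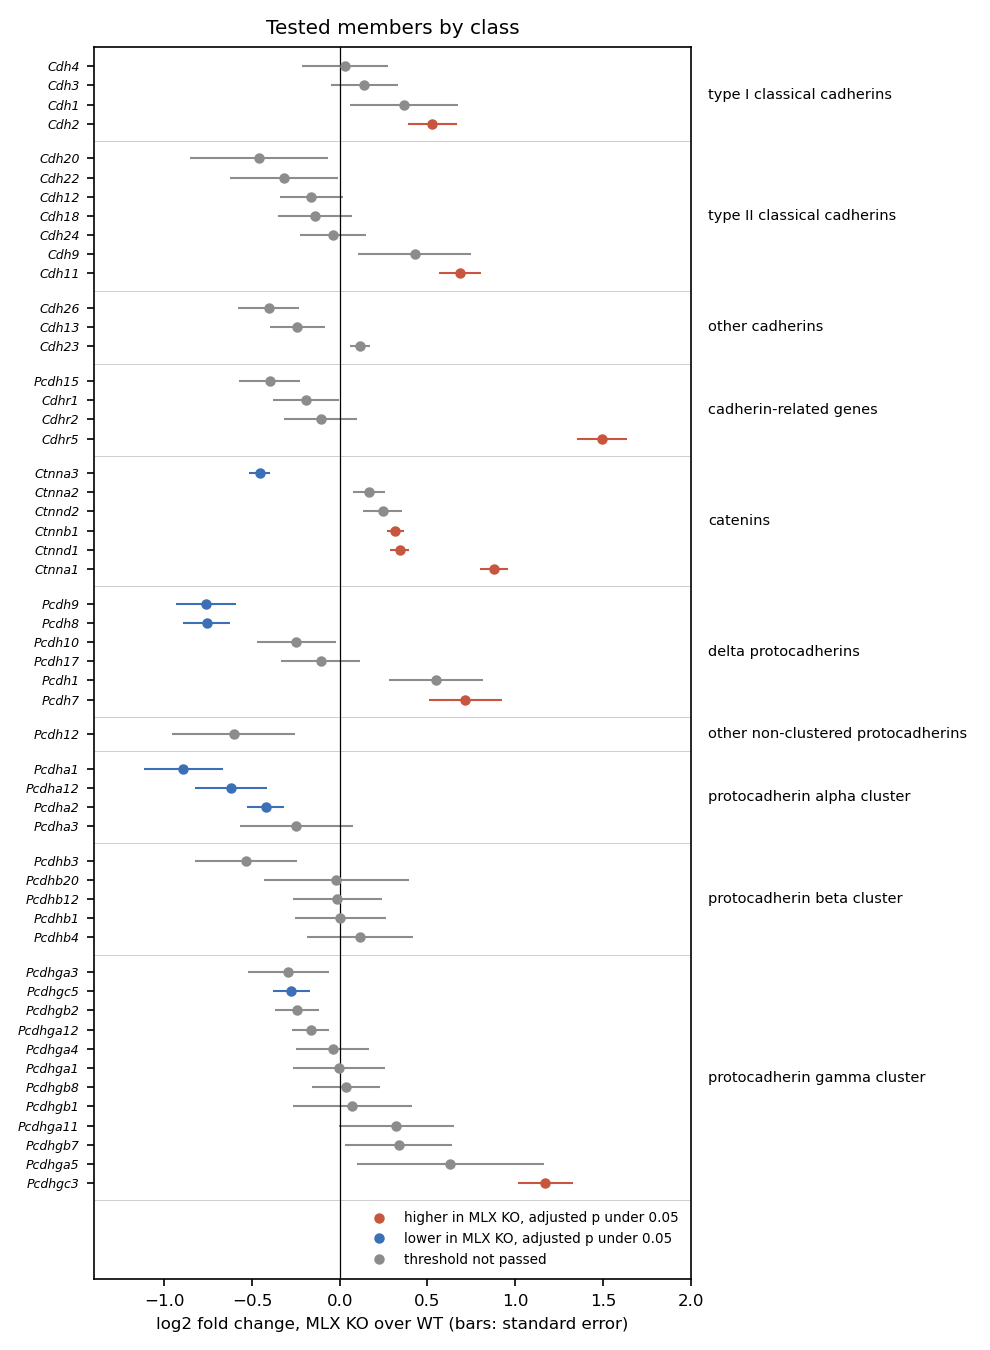
LFC of the 52 tested members (x-axis, KO over WT; bars give the standard error), grouped by class on the y-axis. *Cdhr5* at 1.49 and *Pcdhgc3* at 1.17 lie farthest to the right, and *Pcdha1* at −0.89 lies farthest to the left.

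The summed level of all members was 756, 715.6 and 733.9 CPM in WT and 850.5, 859.3 and 851 CPM in KO libraries. The lowest KO library therefore lay above the highest WT library. Catenins made up more of this sum than any other class, with 404 to 411 CPM in WT and 459 to 494 CPM in KO libraries. Per kilobase of transcript, a scale on which levels can be compared between genes, 5 tested members reached 10 CPM per kb as a mean over both genotypes. They were *Ctnnb1* at 46, *Cdh2* at 23.7, *Ctnna3* at 23.2, *Ctnnd1* at 19.3 and *Ctnna1* at 16 CPM per kb. At the other end, 30 of the 52 tested members were under 1 CPM per kb.

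All 6 catenins were measured, with 3 higher, 1 lower and 2 that did not pass the threshold. *Ctnna1* (alphaE-catenin), the widely expressed alpha-catenin that couples beta-catenin to actin, had 42.1, 38.7 and 43.4 CPM in WT and 66.9, 83.3 and 78.7 CPM in KO libraries. The groups did not overlap, and the level in MLX KO testes was 1.84 times that in WT (95% interval 1.63 to 2.08; LFC 0.88, SE 0.08, adjusted p = 2.08e-05). *Ctnna3* (alphaT-catenin), the paralog first described in heart and testis, went the other way. Its level was 95.6, 100.9 and 99.6 CPM in WT and 77.9, 68.9 and 68.9 CPM in KO libraries. Every KO library was below every WT library, at 0.729 times the WT level (0.667 to 0.796; LFC −0.46, SE 0.06, adjusted p = 1.41e-04). *Ctnna2* (alphaN-catenin), the neural paralog, had 18.5, 19.6 and 17 CPM in WT and 19, 20.3 and 22.7 CPM in KO libraries. These ranges overlapped, and the ratio of 1.12 had an interval of 0.979 to 1.29 (adjusted p = 0.153).

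Because the alpha-catenins moved in opposite directions, their sum per length differed less than its parts. It was 41.9, 42.7 and 43 CPM per kb in WT and 44, 46.3 and 45.6 CPM per kb in KO libraries. *Ctnna3* gave 62%, 64.2% and 62.9% of this sum in WT and 48.1%, 40.4% and 41% in KO libraries. *Ctnna1* gave 27.3%, 24.7% and 27.5% in WT and 41.4%, 49% and 46.9% in KO libraries. *Ctnna3* was thus the most abundant alpha-catenin in all 3 WT libraries, and *Ctnna1* was the most abundant in KO2 and KO3 but not in KO1. The share of *Ctnna2* stayed between 9.59% and 12% in the 6 libraries.

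**Figure D2:**
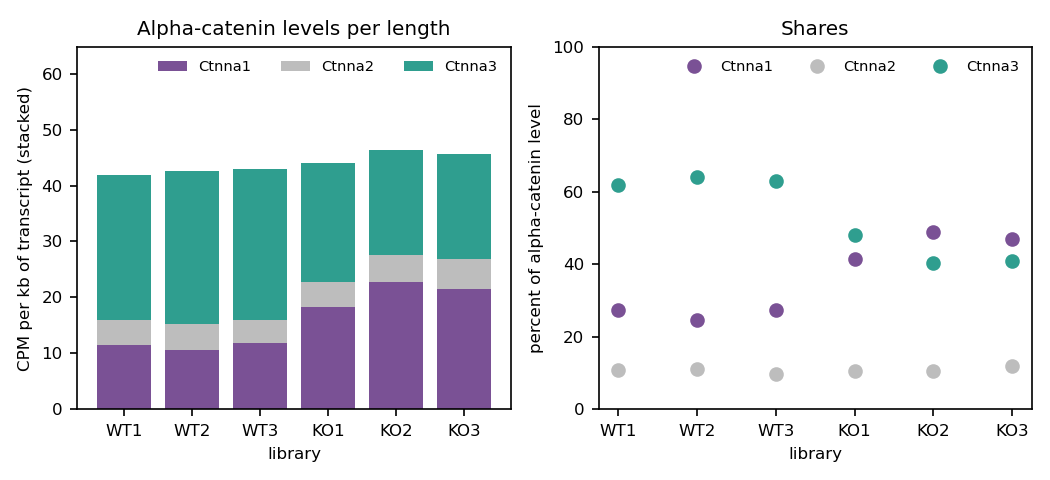
Alpha-catenin levels per kilobase of transcript, stacked for each library (left, y-axis in CPM per kb), and the share of each paralog in that sum (right, y-axis in percent). *Ctnna3* falls from 62.0 to 64.2% of the sum in WT to 40.4 to 48.1% in KO libraries, while *Ctnna1* goes from 24.7 to 27.5% to 41.4 to 49.0%.

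*Ctnnb1* (beta-catenin), the most abundant member per length, had 150.9, 147.3 and 146.7 CPM in WT and 174.6, 189 and 191 CPM in KO libraries. The difference was small but exceeded the spread, at 1.25 times the WT level (1.15 to 1.35; LFC 0.32, SE 0.05, adjusted p = 5.2e-04). *Ctnnd1* (p120-catenin), which stabilizes cadherins at the membrane, rose by a similar factor, from 96.5, 90.5 and 92.1 CPM to 112.6, 116.9 and 124.2 CPM. Its ratio was 1.27 (1.17 to 1.37; LFC 0.34, SE 0.05, adjusted p = 4.55e-04). *Ctnnd2* (delta-catenin), a mainly neural relative, had 7.28, 7 and 7.33 CPM in WT and 8.15, 8.41 and 9.05 CPM in KO libraries. Its groups did not overlap, but the LFC of 0.24 (SE 0.11) did not pass the threshold (adjusted p = 0.0897). Relative to beta-catenin per length, *Ctnna1* stood at 0.259 to 0.292 in WT and at 0.378 to 0.435 in KO libraries.

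The promoters of *Cdhr5* and *Ctnna3*, the member with the highest LFC and the catenin that fell, are shown together with the promoters that hold CACGTG, the E-box bound by dimers of MLX or MAX, among the 29 members whose promoters could be looked up. Sequences are from RefSeq (GRCm38.p6) and cover the 250 bases before a transcription start, read 5′ to 3′ on the gene's strand, with CACGTG in capitals. They lie at chr7:141276787-141277036 (minus strand, *Cdhr5*), chr10:63429848-63430097 (plus, *Ctnna3*), chr8:122848124-122848373 (plus, *Cdh15*) and chr12:33092876-33093125 (minus, *Cdhr3*), each ending at the base before an annotated start of that gene.
Cdhr5: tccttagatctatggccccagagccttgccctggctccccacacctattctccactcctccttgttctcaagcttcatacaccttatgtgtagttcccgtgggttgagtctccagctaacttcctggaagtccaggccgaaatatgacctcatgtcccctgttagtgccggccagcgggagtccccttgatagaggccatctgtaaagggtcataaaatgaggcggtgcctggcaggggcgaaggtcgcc
Ctnna3: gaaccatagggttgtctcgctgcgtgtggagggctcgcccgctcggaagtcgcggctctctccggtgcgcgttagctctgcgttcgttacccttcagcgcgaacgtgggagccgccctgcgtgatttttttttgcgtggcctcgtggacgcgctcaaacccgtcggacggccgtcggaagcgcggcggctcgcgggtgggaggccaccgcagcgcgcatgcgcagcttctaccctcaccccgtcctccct
Cdh15: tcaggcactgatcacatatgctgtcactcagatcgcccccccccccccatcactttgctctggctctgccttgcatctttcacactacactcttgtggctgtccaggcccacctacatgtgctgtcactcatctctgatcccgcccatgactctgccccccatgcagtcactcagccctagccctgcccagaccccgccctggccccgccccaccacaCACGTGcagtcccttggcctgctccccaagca
Cdhr3: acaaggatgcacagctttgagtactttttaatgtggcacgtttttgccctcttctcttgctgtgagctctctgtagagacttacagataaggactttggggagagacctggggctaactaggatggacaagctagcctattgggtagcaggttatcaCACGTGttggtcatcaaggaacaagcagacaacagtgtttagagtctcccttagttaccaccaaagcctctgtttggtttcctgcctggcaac

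The letters CACGTG, which read the same on both strands, were found in this window for 6.86% of the 27025 genes in the RefSeq promoter table. The table held 29 of the 97 members and 7 of the 15 past the threshold, and 0 of those 7 had CACGTG in the window. *Cdh15* (M-cadherin), a muscle cadherin, and *Cdhr3*, the remaining members with a match, had 4 to 6 and 0 to 4 counts per library and were too low to test. A match or its absence describes only these letters in these windows and does not show whether MLX or MAX binds a gene. From chromatin immunoprecipitation of testes, the paper lists *Ctnna3* and *Cdh11* among changed genes that MAX newly bound in MLX KO testes. It describes these sites as bound by MLX in WT testes, where MAX then appears to take the place of MLX. The paper's assignment of binding to genes reached farther from the start than these windows.

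*Cdhr5*, a cadherin-related protein known from the tips of intestinal and renal microvilli, had the highest LFC of any member. Its counts were 77, 61 and 64 in WT and 176, 217 and 218 in KO libraries, or 4.06, 3.88 and 3.61 CPM against 9.08, 12 and 11.5 CPM. The KO level was 2.82 times the WT level (2.27 to 3.5; LFC 1.49, SE 0.14, adjusted p = 2.42e-05). None of the other 3 cadherin-related genes tested passed the threshold. *Pcdh15*, a hair-cell tip-link protein, had an LFC of −0.40 (SE 0.17, adjusted p = 0.0802). *Cdhr1*, a photoreceptor cadherin, had 2.14 to 2.35 CPM in WT and 1.88 to 2.06 CPM in KO libraries, ranges that did not overlap (LFC −0.19, SE 0.19, adjusted p = 0.432).

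Among type I classical cadherins, the group of E-, N-, P- and R-cadherin, 1 of the 4 tested members passed the threshold. *Cdh2* (N-cadherin) had 120.4, 79.5 and 82 CPM in WT and 156.8, 122.6 and 127.8 CPM in KO libraries. Replicate 1 was the highest library of each genotype, and the lowest KO library lay only just above the highest WT library. The ratio was 1.44 (1.16 to 1.79; LFC 0.53, SE 0.14, adjusted p = 0.0104). The call was lost without WT replicate 2 (adjusted p = 0.0513) and with DESeq2 (adjusted p = 0.0723), and kept with the littermate pair as a block (LFC 0.55, SE 0.06, adjusted p = 8.1e-06). *Cdh2* accounted for 71.3 to 79.9% of the summed level per length of the classical cadherins in WT and 77.3 to 84.1% in KO libraries.

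*Cdh1* (E-cadherin), an epithelial cadherin also found on undifferentiated spermatogonia, was near 1 CPM. It had 32, 15 and 20 counts in WT libraries against 24, 41 and 27 in KO libraries. The ranges overlapped, and the interval of the ratio ran from 0.804 to 2.06 (LFC 0.37, SE 0.31, adjusted p = 0.36), which leaves room for the factor seen for *Cdh2*. *Cdh3* (P-cadherin) had 43, 46 and 50 counts in WT libraries against 48, 58 and 59 in KO libraries, with a ratio of 1.1 (0.822 to 1.48, adjusted p = 0.582). *Cdh4* (R-cadherin) had 1.3 to 1.4 CPM in WT and 1.22 to 1.69 CPM in KO libraries. Its ratio of 1.02 had an interval of 0.705 to 1.48 (adjusted p = 0.928).

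Type II classical cadherins, which differ from type I in their adhesive interface, had 7 of 10 members tested and 1 past the threshold. *Cdh11* (OB-cadherin), known from mesenchymal and stromal cells, had 5.85, 4.9 and 5.47 CPM in WT and 8.15, 9.07 and 8.95 CPM in KO libraries. The groups were well separated, at 1.61 times the WT level (1.33 to 1.94; LFC 0.69, SE 0.12, adjusted p = 0.00108). The other 6 tested members had LFC between −0.46 (*Cdh20*) and 0.43 (*Cdh9*). Per length, *Cdh2* exceeded *Cdh11* by 15.8 to 21.7 times in WT and by 14.3 to 20.3 times in KO libraries. Of the cadherins outside the classical types, 0 of 3 tested passed the threshold in the main edgeR fit or in DESeq2. Of these, 1, *Cdh26*, had an unadjusted p under 0.05 in the main fit (LFC −0.41, SE 0.17, unadjusted p = 0.039, adjusted p = 0.0773). Its adjusted p was 0.0473 without WT replicate 2. *Cdh23*, the partner of *Pcdh15* in hair-cell tip links, was the most counted of the 3. It had 65.3 to 72.7 CPM in WT and 70.1 to 76 CPM in KO libraries (LFC 0.12, SE 0.06, adjusted p = 0.13). In edgeR with library size alone it was called higher (LFC 0.255, adjusted p = 0.00575).

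The delta protocadherins, single genes with conserved cytoplasmic motifs, had 6 of 9 members tested, 1 higher and 2 lower. *Pcdh8*, whose relatives take part in cell movement in embryos, had 6.38, 6.93 and 6.26 CPM in WT and 4.13, 3.6 and 3.81 CPM in KO libraries. All KO libraries were lower, at 0.591 times the WT level (0.481 to 0.725; LFC −0.76, SE 0.13, adjusted p = 0.00105). *Pcdh8* shares 10.9% of its exon bases with *Gm9748* on the opposite strand, and the counting is not stated to use strand. *Pcdh9*, a delta-1 protocadherin, fell by almost the same factor, from 4.32, 4.2 and 4.29 CPM to 2.53, 2.1 and 2.91 CPM. Its ratio was 0.59 (0.455 to 0.766; LFC −0.76, SE 0.17, adjusted p = 0.00416).

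*Pcdh7*, another delta-1 member, had 35, 34 and 44 counts in WT libraries against 74, 73 and 53 in KO libraries. The groups were separate, with KO3 closest to the WT range, and the ratio was 1.64 (1.2 to 2.25; LFC 0.72, SE 0.21, adjusted p = 0.0153). The call was lost without WT replicate 1 (adjusted p = 0.0616), without KO replicate 2 (0.0623) and in DESeq2 with the pair as a block (0.146). *Pcdh11x*, an X-linked delta-1 member, was too low for the filter but separated the genotypes. It had 9, 11 and 10 counts in WT libraries against 0, 1 and 2 in KO libraries. Its WT mean was 3.63 times the level that the floor of 3 counts in each KO library would give. Tested without the filter, its adjusted p was 0.00208. *Pcdh12*, an endothelial protocadherin outside the delta group, had 2.95, 5.91 and 5.58 CPM in WT and 1.44, 4.48 and 3.55 CPM in KO libraries. Replicate 1 was the lowest of each genotype, and the LFC of −0.61 (SE 0.35, adjusted p = 0.181) passed the threshold only with the pair as a block (LFC −0.65, adjusted p = 0.00873 in edgeR).

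**Figure D3:**
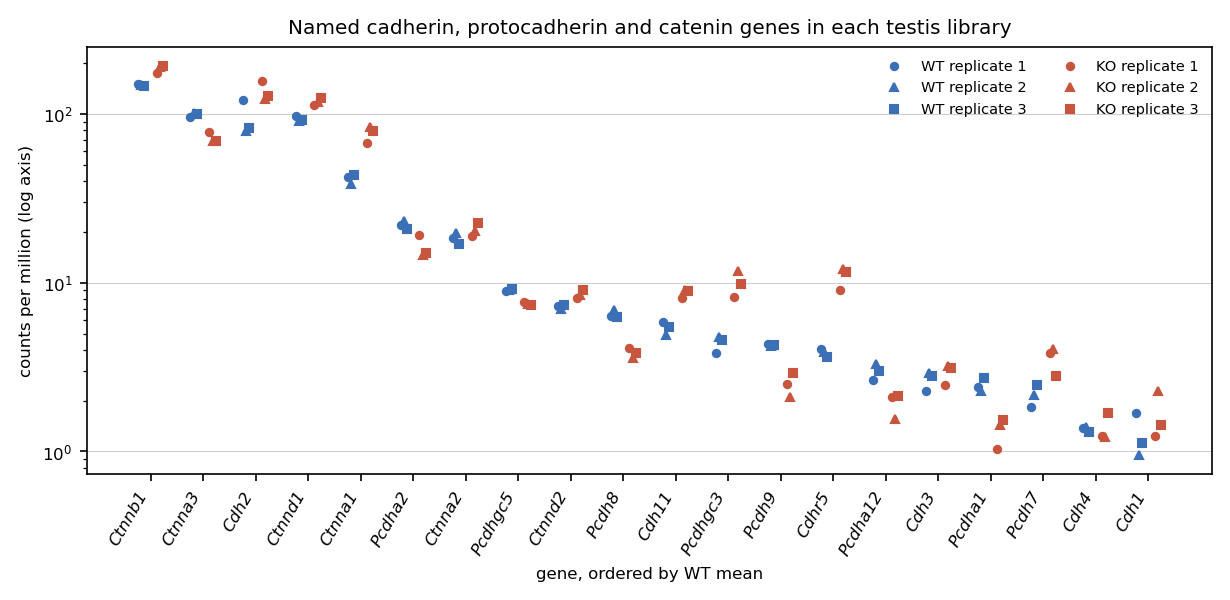
CPM (y-axis, log scale) of the 20 tested members described library by library, ordered by WT mean, with WT libraries in blue and KO libraries in red and a marker shape for each replicate number. *Ctnna1*, *Cdhr5* and *Pcdhgc3* stand clearly higher in the KO libraries, *Ctnna3*, *Pcdh8* and *Pcdh9* clearly lower, and *Cdh2* is highest in replicate 1 of both genotypes.

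The clustered protocadherins lie on chromosome 18 (mm10), from *Pcdha1*, which starts at 36930285, to *Pcdhgc5*, which ends at 37841873. In the alpha and gamma clusters a large variable first exon is typically spliced to exons that the genes of the cluster share. By the RefSeq annotation, between 22.7% and 45.8% of a gamma gene's exon bases and between 50.1% and 54.6% of an alpha gene's overlap other genes of the strand, apart from *Pcdha6* (81.2%) and *Pcdha7* (100%), whose first exons also lie in a separate RefSeq gene model. Counts nevertheless ran from 0 to 414 between alpha genes and from 0 to 248 between gamma genes, so reads of the shared exons were not credited to every gene. How such reads were treated is not given in the sources used here, and levels per length below therefore use only the unshared bases. Of the 57 clustered genes, 22 were tested, with 1 higher and 4 lower.

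In the alpha cluster 4 of 12 genes were tested, and 3 passed the threshold, all lower in MLX KO testes. Of the summed level per length of the alpha genes counted, *Pcdha2* gave 72.6 to 76.2% in WT and 74.5 to 79.7% in KO libraries. *Pcdha7*, which has no unshared bases, was left out of this sum. The level of *Pcdha2* was 21.8, 23.1 and 20.8 CPM in WT and 19.2, 14.7 and 15 CPM in KO libraries. KO1 was the KO library nearest to WT, and the ratio was 0.746 (0.633 to 0.878; LFC −0.42, SE 0.11, adjusted p = 0.00792). *Pcdha1* had 2.43, 2.29 and 2.71 CPM in WT and 1.03, 1.44 and 1.53 CPM in KO libraries, a separation that amounted to an LFC of −0.89 (SE 0.22, adjusted p = 0.00751; 0.0863 in DESeq2 with the pair as a block). *Pcdha12* had 2.64, 3.31 and 2.99 CPM in WT and 2.12, 1.55 and 2.12 CPM in KO libraries (LFC −0.62, SE 0.20, adjusted p = 0.0286). This call was less stable. The adjusted p was 0.0749 with library size alone, 0.0827 with DESeq2, 0.198 in DESeq2 with the pair as a block, 0.101 without WT replicate 2, 0.0651 without WT replicate 3 and 0.114 without KO replicate 2. The fourth gene, *Pcdha3*, had an LFC of −0.25 (SE 0.32, adjusted p = 0.558).

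In the gamma cluster 12 of 21 genes were tested, with 1 higher and 1 lower. *Pcdhgc3*, one of the C-type genes at the cluster's far end and the gamma isoform known outside the nervous system, had 73, 75 and 81 counts in WT libraries against 159, 211 and 185 in KO libraries. In CPM this was 3.85, 4.77 and 4.57 against 8.2, 11.7 and 9.79. The KO level was 2.25 times the WT level (1.77 to 2.86; LFC 1.17, SE 0.16, adjusted p = 1.93e-04), and all 3 pairs had a log2 ratio between 1.09 and 1.29. Of the level per unshared length of the 21 gamma genes counted, *Pcdhgc3* gave 9.08 to 10.5% in WT and 17.1 to 23.2% in KO libraries. The annotated gene *Pcdhgc4* is not among these 21 genes. *Pcdhgc5*, farther along the strand, had 8.96, 9.09 and 9.14 CPM in WT and 7.63, 7.47 and 7.36 CPM in KO libraries. The groups were separate, but the LFC of −0.28 (SE 0.10) was at the threshold (adjusted p = 0.049) and did not pass with the pair as a block (adjusted p = 0.0733).

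The gamma gene with the highest WT level, *Pcdhga12*, had 12.7, 15.3 and 13.1 CPM in WT and 12.8, 12.7 and 11.1 CPM in KO libraries. These ranges overlapped, and the ratio was 0.892 (0.76 to 1.05, adjusted p = 0.221). *Pcdhgb2* had 6.71 to 7.07 CPM in WT and 5.26 to 6.24 CPM in KO libraries, without overlap (LFC −0.24, SE 0.12, adjusted p = 0.131). In the beta cluster, whose genes are single-exon and do not share exons, 5 of 22 genes were tested and 0 passed the threshold by edgeR. Their LFC ran from −0.54 (*Pcdhb3*, unadjusted p = 0.0912) to 0.12, so 0 had an unadjusted p under 0.05, and DESeq2 also called 0. Without KO replicate 1, *Pcdhb3* passed the threshold as lower (LFC −0.85, adjusted p = 0.0341).

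The 45 members that were not tested had between 1 and 66 counts in total over the 6 libraries, with at most 18 in one library. Of the untested members, 12 had 3 or fewer counts in every library of both genotypes. Another 7 were at this floor in WT only and 3 in KO only. *Cdh19*, a cadherin of Schwann cells and their precursors, had 1, 0 and 2 counts in WT libraries against 3, 10 and 7 in KO libraries. Its KO mean was 2.08 times the level that 3 counts in each WT library would give. *Pcdhb16* had 2, 3 and 0 counts in WT libraries against 8, 7 and 10 in KO libraries, a KO mean 2.57 times this floor. *Pcdhga9* had 2, 1 and 2 against 6, 8 and 3 counts (1.76 times the floor). *Pcdhgb4* had 0, 0 and 1 against 6, 10 and 1 counts (1.77 times), with KO3 as low as WT. For *Pcdhb18* and *Pcdhb5* the KO mean was 1.68 and 1.34 times the floor. These ratios rest on means and are not lower bounds. The genes were picked for being at the floor in 1 genotype. *Pcdha7*, also at the floor in WT, had at most 4 counts in a KO library. *Pcdh20* and *Pcdhac1*, the other genes at the floor in KO libraries, had at most 6 and 5 counts in a WT library. Without the filter, *Cdh19* (adjusted p = 0.0309), *Pcdhb16* (0.0264), *Pcdhgb4* (0.0263) and *Pcdh18* (0.0481) passed the threshold as higher.

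Other genes of the same junctions were followed in lists of cadherin superfamily genes outside the set, binding partners of the adherens junction, the complex that degrades beta-catenin, and beta-catenin target genes. Their counts stand beside the 24.8% of all genes that were higher and the 20.6% that were lower. Of the 13 superfamily genes tested, 2 were higher and 2 lower, with a median LFC of −0.06. *Fat1*, an atypical giant cadherin, had 993, 777 and 919 counts in WT libraries against 1185, 1320 and 1411 in KO libraries (LFC 0.44, SE 0.07, adjusted p = 7.59e-04). *Clstn1* (calsyntenin-1), a transport adaptor, was higher as well (LFC 0.39, SE 0.06, adjusted p = 4.2e-04), whereas its paralog *Clstn3* fell from 134, 128 and 157 counts to 68, 54 and 82 (LFC −1.15, SE 0.16, adjusted p = 2.73e-04). *Dsg1b*, a desmosomal cadherin, was lower too (LFC −0.79, SE 0.17, adjusted p = 0.00306). *Fat3* was called higher only with library size alone (adjusted p = 0.0401) or without KO replicate 1 (5.32e-04). *Fat4* was called lower only without WT replicate 2 (0.0245) and *Dchs1* only without WT replicate 3 (0.00387).

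Of the 16 adherens junction partners tested, 6 were higher and 2 lower, with a median LFC of 0.05. *Ctnnal1* (alpha-catulin), a relative of the alpha-catenins, had 339, 331 and 369 counts in WT libraries against 619, 675 and 733 in KO libraries (LFC 0.86, SE 0.09, adjusted p = 5.45e-05). *Adam10*, the protease that cleaves the ectodomains of N- and E-cadherin and of gamma protocadherins, had 659, 487 and 551 counts in WT libraries against 993, 1070 and 1087 in KO libraries (LFC 0.79, SE 0.07, adjusted p = 2.15e-05). *Lima1* (EPLIN), an actin linker of alpha-catenin, was higher (LFC 0.55, SE 0.10, adjusted p = 9.83e-04), and so were vinculin (*Vcl*, LFC 0.22, SE 0.06, adjusted p = 0.0165) and the beta-catenin inhibitor *Ctnnbip1* (LFC 0.35, SE 0.12, adjusted p = 0.0334). The call of *Vcl* was lost in DESeq2 with the pair as a block (adjusted p = 0.0996) and without WT replicate 2 (0.0798) or KO replicate 3 (0.0676). The call of *Ctnnbip1* was lost in DESeq2 without (0.138) and with the block (0.283) and without WT replicate 1 (0.0803), WT replicate 2 (0.103), WT replicate 3 (0.0545), KO replicate 2 (0.126) or KO replicate 3 (0.0708). *Pkp2* (plakophilin-2) was just past the threshold (LFC 0.42, SE 0.15, adjusted p = 0.0437) and did not pass with the pair as a block (adjusted p = 0.0565), with DESeq2 (0.182) or without any single library other than KO replicate 1 (0.0545 to 0.164). Plakoglobin (*Jup*), which can take the place of beta-catenin, had an LFC of 0.07 (SE 0.08, adjusted p = 0.502).

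In the beta-catenin degradation complex 1 of 8 genes was higher and 1 lower. *Apc*, the scaffold of the complex, had 576, 394 and 506 counts in WT libraries against 773, 730 and 830 in KO libraries (LFC 0.56, SE 0.08, adjusted p = 2.71e-04). *Csnk1a1*, the priming kinase, was lower (LFC −0.22, SE 0.05, adjusted p = 0.00758), a call lost with library size alone (LFC −0.08, adjusted p = 0.163). That scaling called *Axin1* (LFC 0.2, adjusted p = 0.0104) and *Gsk3b* (LFC 0.196, adjusted p = 0.00634) higher. *Gsk3a* was called lower in edgeR with DESeq2 size factors (LFC −0.161, adjusted p = 0.0312). *Btrc* was called lower without KO replicate 1 (LFC −0.124, adjusted p = 0.0368). Of 9 beta-catenin target genes tested, 0 were higher by edgeR or DESeq2 (also 0 at an unadjusted p under 0.05) and 2 were lower. *Lef1* had an LFC of −0.28 (SE 0.06, adjusted p = 0.00352) and *Znrf3* an LFC of −0.28 (SE 0.10, adjusted p = 0.0332), the latter lost with library size alone (LFC −0.14, adjusted p = 0.261) and without WT replicate 1 (0.0504), WT replicate 2 (0.141) or KO replicate 3 (0.135). *Axin2*, the general feedback target of the pathway, had 66, 56 and 59 counts in WT libraries against 80, 65 and 58 in KO libraries (LFC 0.06, SE 0.17, adjusted p = 0.795).

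**Figure D4:**
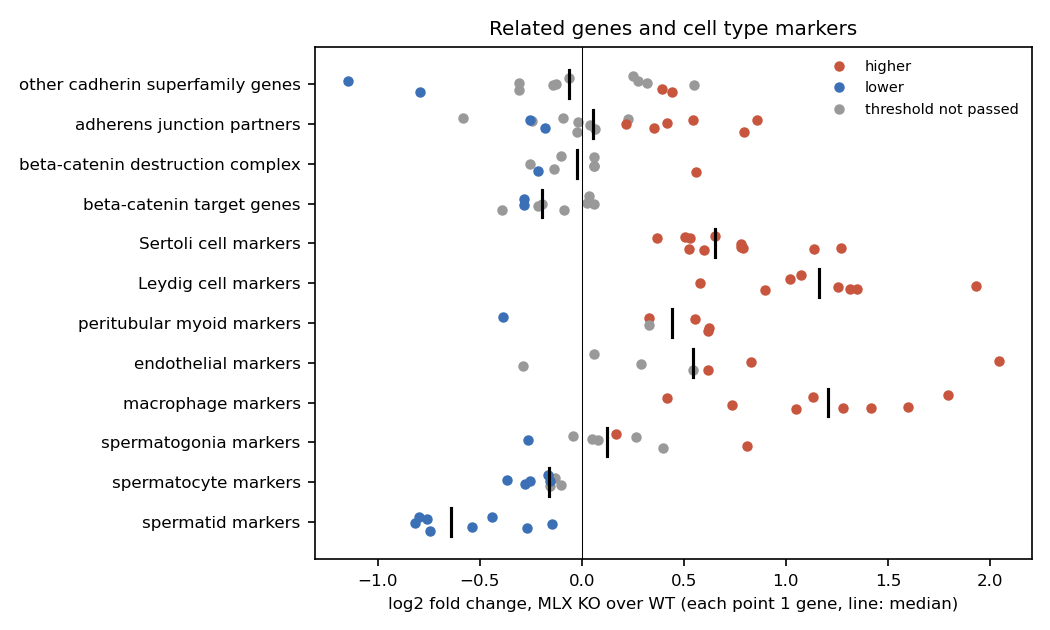
LFC (x-axis, KO over WT) of each tested gene in the lists of related genes and of cell type markers (y-axis), colored by whether it passed the threshold, with the median of each list as a line. Spermatid markers lie to the left of 0, and Sertoli cell, Leydig cell and macrophage markers to the right, while the junction lists spread to both sides.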

How the data were processed

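RNA-seq of whole testes from 3 WT and 3 MLX KO males was analysed. The authors deposited raw read counts per gene symbol, made after alignment to mm10 with TopHat. The submitters' processing notes also name DESeq2, and the paper edgeR or DESeq. The counting tool, annotation and strand setting are not given in the sources used here. The table also holds the authors' comparison (mean signal, log2 fold change, its standard error, test score, p-value and adjusted p-value), and these deposited score and comparison values were not used. The ChIP-Seq samples were not analysed here.

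Of 17933 rows, 2 repeated a symbol, which left 17931. Counts were tested in edgeR 4.0.16 (R 4.3.3; filterByExpr with a minimum count of 10, TMM, quasi-likelihood, genotype only) over 14640 genes. Libraries held 16674678 to 19742726 counts. Intervals of ratios are 95% intervals from the fit. Levels per kilobase use the longest curated RefSeq transcript (GRCm38.p6), or unshared exon bases in the alpha and gamma clusters. A group with at most 3 counts in each library was treated as at the floor, which covers counting error only. Ratios to the floor use the mean of the other genotype and leave out the spread and counting error of its libraries. Members named are those past the threshold, all tested catenins and type I cadherins, the 3 highest per length and those at the floor in 1 genotype. The other genes were named for their class or list after their values were seen. The members and lists were chosen with earlier results of these data known. Scripts were tested on simulated data.

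The sample titles call the replicates paired and the paper describes littermates, so numbers 1 to 3 pair the samples. After the group means were removed, WT and KO libraries of the same number correlated across genes at 0.145 (pair 1), 0.0363 (pair 2) and 0.121 (pair 3), and those of different numbers at −0.123 to 0.033. Alternatives were DESeq2 1.42.0, edgeR and DESeq2 fits that block on the pair, other scalings and filters, and each library left out.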

Additional observations from a re-analysis of the deposited data

How the results depend on the processing

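The 20 members described library by library were refitted under 14 alternatives each, 280 fits in all. In 251 the direction and the side of the threshold were the same, in 24 a call was lost, in 2 a call was gained, and in 3 the direction reversed. The reversals were all of *Cdh4*, whose LFC near 0 was −0.0095 in DESeq2 with the pair as a block, −0.0024 without WT replicate 3 and −0.14 without KO replicate 3 (up to 0.12 with other single libraries left out). *Cdh11*, *Cdhr5*, *Ctnna1*, *Ctnna3*, *Ctnnb1*, *Ctnnd1*, *Pcdh8*, *Pcdh9*, *Pcdha2* and *Pcdhgc3* passed the threshold in all 14 alternatives. The call of *Pcdhgc5* was lost in 12, with an adjusted p from 0.0565 to 0.133 when single libraries were left out. Members past the threshold numbered 11 to 19 under all alternatives and 12 to 15 when each library was left out in turn. The 19 were called without the filter, where 97 members were tested. Over all genes, 4604 to 7395 passed under the alternatives, against 6649 in the main fit. With the pair as a block, edgeR called 15 members, adding *Pcdh12* and losing *Pcdhgc5*, and changed no other member's call. DESeq2 with the block called 11 of the 52 members tested and 4604 of the 14640 genes tested.

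Scaling by library size alone moved the median LFC of all genes from 0.03 to 0.16. Members past the threshold were then 11 higher and 5 lower, against 8 and 7, and all genes 5343 higher and 1268 lower, against 3634 and 3015. *Cdh23*, *Ctnna2* and *Ctnnd2* were then called higher. The summed level of the members became 700.6 CPM in WT and 896.3 CPM in KO libraries. On the TMM scale, the sum without the clustered protocadherins was 643.8 CPM in WT and 766.6 CPM in KO libraries. Adherens junction partners past the threshold went from 8 to 5 in DESeq2 with the pair as a block and to between 4 and 11 when single libraries were left out (4 without WT replicate 2 or KO replicate 3, 5 without KO replicate 2). Beta-catenin targets went from 2 to 1 with library size alone and to between 1 and 2 with single libraries left out (1 without WT replicate 1, WT replicate 2 or KO replicate 3). The cause of these changes was not tested. Depth limits the 45 untested members, which had at most 66 counts over the 6 libraries.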
